A study of Bos taurus with 8 samples.

Results

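Chemokines are small proteins that direct the migration of leukocytes, and they act through G protein-coupled receptors on the responding cells. The set described here holds 36 genes, 24 chemokines and 12 chemokine receptors. They were chosen by gene symbol from a list of names, with no measured value in the rule, and all 36 were found among the 17932 genes of the jejunal RNA-seq table. The names were chosen with earlier results of these data known, so the shares of members given below describe them and test nothing. Tissue came from Holstein bull calves of a feeding trial with 14 animals. The DCLI group (7 calves) was given 1 g/d of a dead-cell postbiotic of Lactobacillus ingluviei, with the strain written CR37 in the labels and C37 in the paper, and the CON group (7 calves) was given the basic diet alone. All calves of both groups had starter feed from day 33, had their milk replacer cut to 50% on day 82, were weaned by day 89 and were sampled on day 90. From each group, 4 calves were drawn at random and 1 jejunal library was made per calf, named here DCLI1 to DCLI4 and CON1 to CON4, so each group is a sample of 4 animals at a single site of the gut on the day after weaning. Values are in TPM, a transcript level scaled for length and for the library total, and they are listed in the order of calves 1 to 4.

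The label of the extraction names liver, while the other labels name jejunum. The 4 hepatocyte markers summed to 5.46 to 11.6 TPM in the DCLI group and 3.02 to 54.4 TPM in the CON group. Among them, ALB was at most 1.07 TPM, while TTR was at 53.8 TPM in CON4 and at most 1.41 TPM elsewhere. The enterocyte gene VIL1 was 821 to 1146 TPM in the DCLI group and 117 to 1274 TPM in the CON group. Tissue other than epithelium was present, as 5 smooth muscle markers summed to 755 to 2479 TPM in the DCLI group and 1160 to 7062 TPM in the CON group. The library of CON4 was unlike the rest. The mean level of 12 B cell markers on the log2(TPM + 1) scale was 1.65 to 2.15 in the DCLI group, against 2.05, 2.06, 1.54 and 7.56 in CON1 to CON4, and CON4 also had the lowest mean level of 8 enterocyte markers. Results that rest on CON4 are therefore given with and without it. In these bulk samples, fewer cells of a type and less RNA per cell cannot be told apart.

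In human and mouse, chemokines are grouped as homeostatic, which keep lymphocytes moving through healthy tissue, or inflammatory, which are induced by microbial products and cytokines. The small intestine is known for CCL25, which is made by its epithelium and draws lymphocytes that carry CCR9, and for CCL28, which draws antibody-secreting cells that carry CCR10. Stromal and endothelial cells make CXCL12 and CCL21, which guide cells that carry CXCR4 and CCR7. The atypical receptors ACKR3 and ACKR4 bind these ligands without G protein signalling and clear them from the tissue, so the level of a ligand and that of its scavenging receptor together shape a gradient.

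In the jejunum, the ligands were far more abundant than the receptors. The 24 ligands summed to 3061, 2976, 2821 and 1952 TPM in the DCLI group, against 2647, 2255, 1554 and 798 TPM in the CON group. The 12 receptors summed to 82.6, 55.4, 94.9 and 66.9 TPM in the DCLI group, against 113, 88.5, 59.9 and 410 TPM in the CON group, and the high value of CON4 came from CXCR4 at 86.8% of its receptor TPM. Over the 8 libraries, 3 members had a mean above 100 TPM (CCL25, CCL5 and CXCL16), 16 were between 10 and 100 TPM, and 17 were below 10 TPM. CCL25 alone had a median rank of 130 among all genes of a library. It made up 62.7%, 60.0%, 48.6% and 62.5% of the ligand TPM in the DCLI group, against 58.0%, 56.7%, 32.8% and 13.0% in the CON group.

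**Figure D1:**
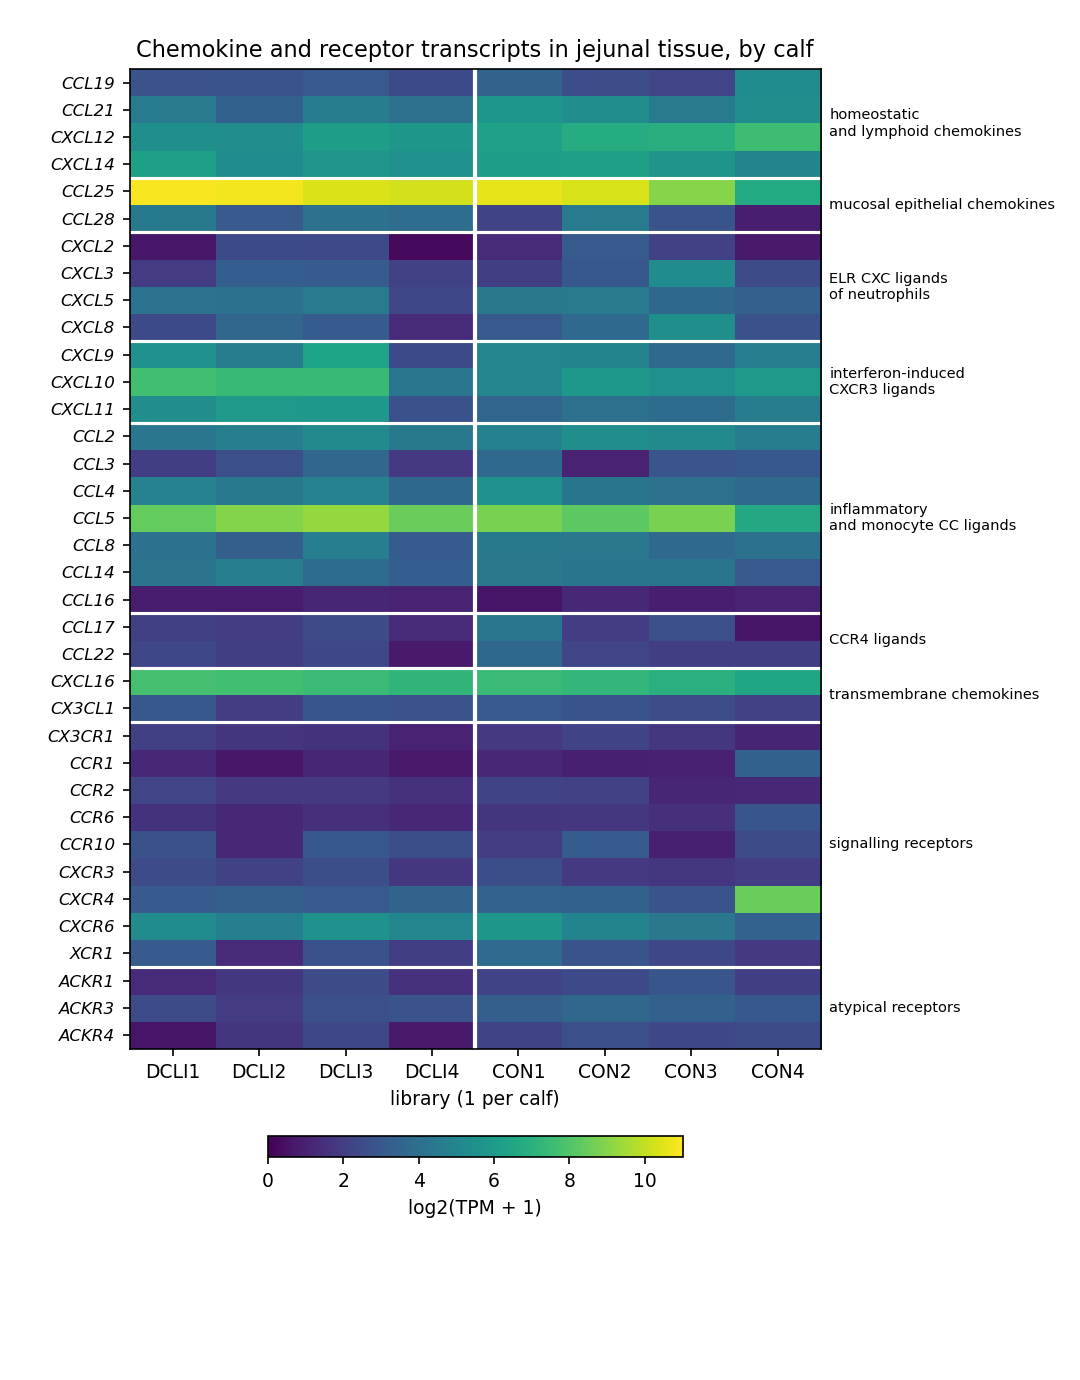
Level of each of the 36 genes in each library, as colour on the log2(TPM + 1) scale, with genes grouped by role and a white line between the 4 DCLI libraries and the 4 CON libraries. CCL25 is the brightest row, CXCR4 is bright in CON4 alone, and the CXCR3 ligands are dark in DCLI4.

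All 36 members passed the filter of at least 1 TPM in at least 4 libraries. None passed the threshold of an adjusted p under 0.05 and a log2 fold change of 1 or more in size (limma, Benjamini-Hochberg over 13228 genes), and 0% of all genes did. At an unadjusted p under 0.05, which 7.08% of all genes reached, 0 members were higher in the DCLI group, where 4.09% of all genes were, and 4 of 36 members (11.1%) were lower, where 2.99% of all genes were. The 4 were CXCL12, ACKR3, CCL21 and ACKR4. CXCL12 is a ligand of ACKR3, and CCL21 is a ligand of ACKR4. The DCLI and CON values of 2 members (5.56%), CXCL12 and ACKR3, did not overlap, with all DCLI calves lower. Among all genes 3.11% were without overlap in that direction and 2.28% in the other, 5.39% together. The log2 fold change was above 0 for 15 members (41.7%), against 43.5% of all genes, and the median over the members was -0.18, against -0.06 over all genes. Without CON4, 4 of 35 members (11.4%) had an unadjusted p under 0.05 and were lower, where 5.85% of all genes were, and 2 members were without overlap and lower (5.71%, against 6.31% of all genes). With 1 calf left out in turn, the count at an unadjusted p under 0.05 was 3 to 7, where 3.33% to 10.3% of all genes were. The 7 were found without CON1, where 7.14% of all genes were at that p, and 3 of them, CCL25, CXCL16 and CXCR6, were higher in the DCLI group, where 3.16% of all genes were. Without CON2, 2 of 35 members were higher (CCL25 and CCL28), where 6.65% of all genes were. Without DCLI4, 2 of 35 were higher (CXCL10 and CXCL11), where 2.88% of all genes were. The count without overlap was 2 to 4, with 4 without CON3, DCLI3 or DCLI4. Groups separate more easily when 1 of them is smaller: 3.11% of all genes were lower without overlap in the full comparison, and 6.31% without CON4. The share of all genes was not computed without CON3, DCLI3 or DCLI4, so the rise to 4 is not a result about the members.

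**Figure D2:**
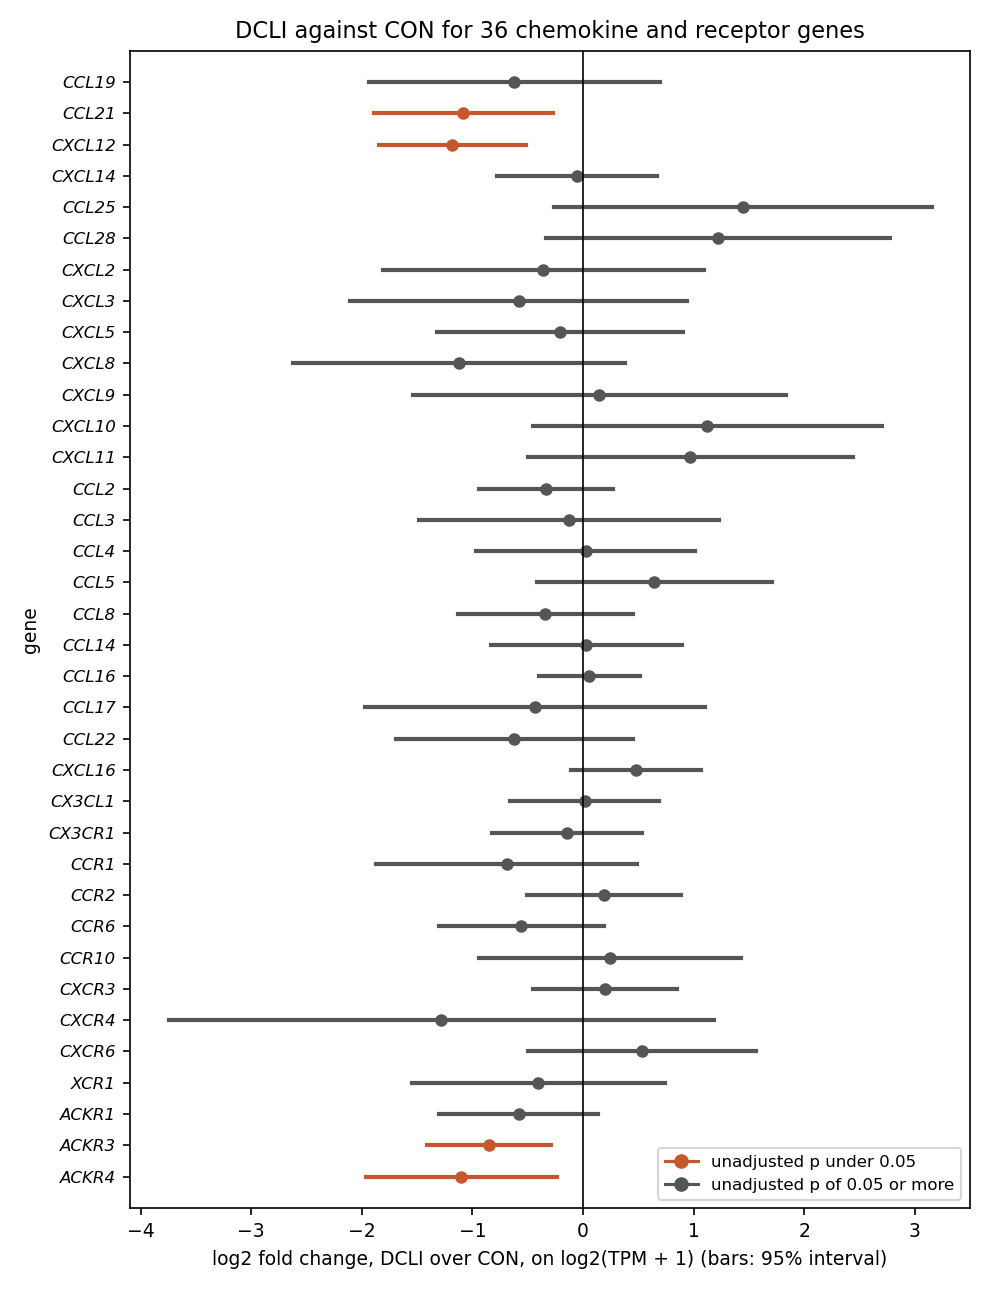
Log2 fold change of each member, DCLI over CON, on the log2(TPM + 1) scale, with points for the estimate and bars for its 95% interval. Orange marks the 4 members with an unadjusted p under 0.05 (CCL21, CXCL12, ACKR3 and ACKR4), whose intervals lie below 0, while the other intervals cross 0.

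CXCL12, the stromal ligand of CXCR4 that retains and positions lymphocytes, was the member with the smallest p. Its level (gene ID 613811) was 43.8, 41.1, 69.0 and 56.4 TPM in the DCLI group, against 77.7, 112, 117 and 191 TPM in the CON group. Every DCLI calf was below every CON calf, and the highest of all was CON4. The means were 52.6 ± 12.8 TPM in the DCLI group and 124 ± 47.9 TPM in the CON group (SD, n = 4 each). The log2 fold change was -1.18 (SE 0.29), with an unadjusted limma p of 0.00298 and a Benjamini-Hochberg adjusted p of 0.692. Without CON4 it was -0.95, with an adjusted p of 0.379 by limma with Benjamini-Hochberg adjustment, and the groups again did not overlap. The gene had 5 transcripts in the table. The transcript with the largest share of the gene was at 14.7, 16.4, 20.6 and 20.9 TPM in the DCLI group, against 35.97, 40.96, 49.2 and 82.7 TPM in the CON group, without overlap, and the other 4 transcripts overlapped. For transcripts, the share of all without overlap was not computed.

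ACKR3 (gene ID 509585), the receptor that takes up CXCL12 and CXCL11, showed the same separation at a lower level. It was at 4.93, 2.78, 5.35 and 6.05 TPM in the DCLI group, against 9.02, 11.2, 9.50 and 7.25 TPM in the CON group. All DCLI calves were below all CON calves, and CON4 was the lowest of the CON group, not the highest as for CXCL12. The means were 4.78 ± 1.41 TPM in the DCLI group and 9.26 ± 1.64 TPM in the CON group (SD, n = 4 each), with a log2 fold change of -0.85 (SE 0.25, unadjusted limma p of 0.00772, Benjamini-Hochberg adjusted p of 0.692). It was -0.95 without CON4 (limma, Benjamini-Hochberg adjusted p of 0.379). CXCR4, the signalling receptor of CXCL12, overlapped between the groups. Its log2 fold change was -1.28 with CON4 and 0.02 without it, and its values are given with the other receptors.

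CCL21 (gene ID 511112), made by lymphatic vessels and lymphoid stroma to draw in T cells and dendritic cells, was at 23.1, 9.63, 24.2 and 15.6 TPM in the DCLI group, against 54.0, 40.8, 21.4 and 41.1 TPM in the CON group. The groups overlapped through CON3, which lay within the DCLI range, while the other 3 CON calves were above every DCLI calf. On the log2 scale the fold change was -1.08 (SE 0.36, unadjusted limma p of 0.0143, Benjamini-Hochberg adjusted p of 0.692), and it was -1.34 without CON3 and -1.04 without CON4. ACKR4 (gene ID 281672), which removes CCL19, CCL21 and CCL25, was at 0.54, 2.11, 4.29 and 0.71 TPM in the DCLI group, against 3.84, 5.35, 4.14 and 4.80 TPM in the CON group. DCLI3 alone reached the CON range, and the other DCLI calves were below every CON calf. The log2 fold change was -1.10 (SE 0.38, unadjusted limma p of 0.0183, Benjamini-Hochberg adjusted p of 0.692), and at levels this low the log2(TPM + 1) scale understates a change. The main transcript of ACKR4, at 0.54, 1.87, 3.24 and 0.40 TPM in the DCLI group, against 3.29, 4.54, 3.45 and 4.19 TPM in the CON group, did not overlap. Its other transcript did overlap, and the share of all transcripts without overlap was not computed. The unadjusted p of ACKR4 was above 0.05 without DCLI1 or without DCLI4, with log2 fold changes of -0.86 and -0.91.

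The other homeostatic ligands were not at an unadjusted p under 0.05. CCL19 (gene ID 509167), the partner of CCL21 at the receptor CCR7 and its neighbour in the RefSeq gene order with no protein-coding gene between them, was at 6.13, 6.26, 7.40 and 4.47 TPM in the DCLI group, against 10.2, 5.10, 3.99 and 38.2 TPM in the CON group. CON4 was far above the rest, and the log2 fold change of -0.62 was 0.00038 without it. CXCL14 (gene ID 511771), an epithelial and stromal ligand among the 6 most abundant members, was at 74.48, 40.00, 52.9 and 44.9 TPM in the DCLI group, against 71.1, 75.0, 50.2 and 30.6 TPM in the CON group, with wide overlap and a log2 fold change of -0.05 (95% interval -0.77 to 0.67), or -0.32 without CON4. CCR7, listed among the other chemokine genes, was at 1.52, 1.27, 1.95 and 0.53 TPM in the DCLI group, against 7.50, 1.49, 0.66 and 11.3 TPM in the CON group, with the 2 high values in CON1 and CON4. ACKR1 (gene ID 528076), the atypical receptor of venules and red cells that binds inflammatory chemokines, was at 1.53 to 4.92 TPM in the DCLI group and 3.06 to 6.61 TPM in the CON group, with a log2 fold change of -0.58 (95% interval -1.3 to 0.13). All 3 atypical receptors thus had log2 fold changes below 0, with a median of -0.85 and of -0.95 without CON4.

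Markers of stroma were compared as well. All 7 fibroblast markers had log2 fold changes below 0. Of them, 3, the collagen genes COL1A1, COL1A2 and COL3A1, were lower at an unadjusted limma p under 0.05, where 2.99% of all genes were. The other markers, not at that p, had log2 fold changes from -0.63 (DCN) to -0.06 (LUM). Without CON4 the 7 were again below 0, and 4 of them were lower without overlap, where 6.31% of all genes were. With CON4 this held for 1, where 3.11% of all genes were. That 1 was COL1A2, at 30.1, 48.4, 63.4 and 30.2 TPM in the DCLI group, against 87.0, 91.4, 97.8 and 75.6 TPM in the CON group. Summed, the 7 markers were at 336 to 582 TPM in the DCLI group and 460 to 982 TPM in the CON group, with CON4 lowest of its group, whereas CXCL12 was highest in CON4. The 4 lymphatic endothelial markers summed to 10.8 to 21.1 TPM in the DCLI group and 15.7 to 30.7 TPM in the CON group, with 4 of 4 log2 fold changes below 0 and none at an unadjusted p under 0.05, and 3 of 4 were below 0 without CON4. Of 8 blood endothelial markers 7 were tested and 5 were below 0, or 7 without CON4, and SELP, an adhesion molecule of activated venules, was lower without overlap. No defining marker of the 3 lists was at 0 in all libraries. The part of these cells in the difference of CXCL12, ACKR3, CCL21 and ACKR4 was not tested.

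**Figure D3:**
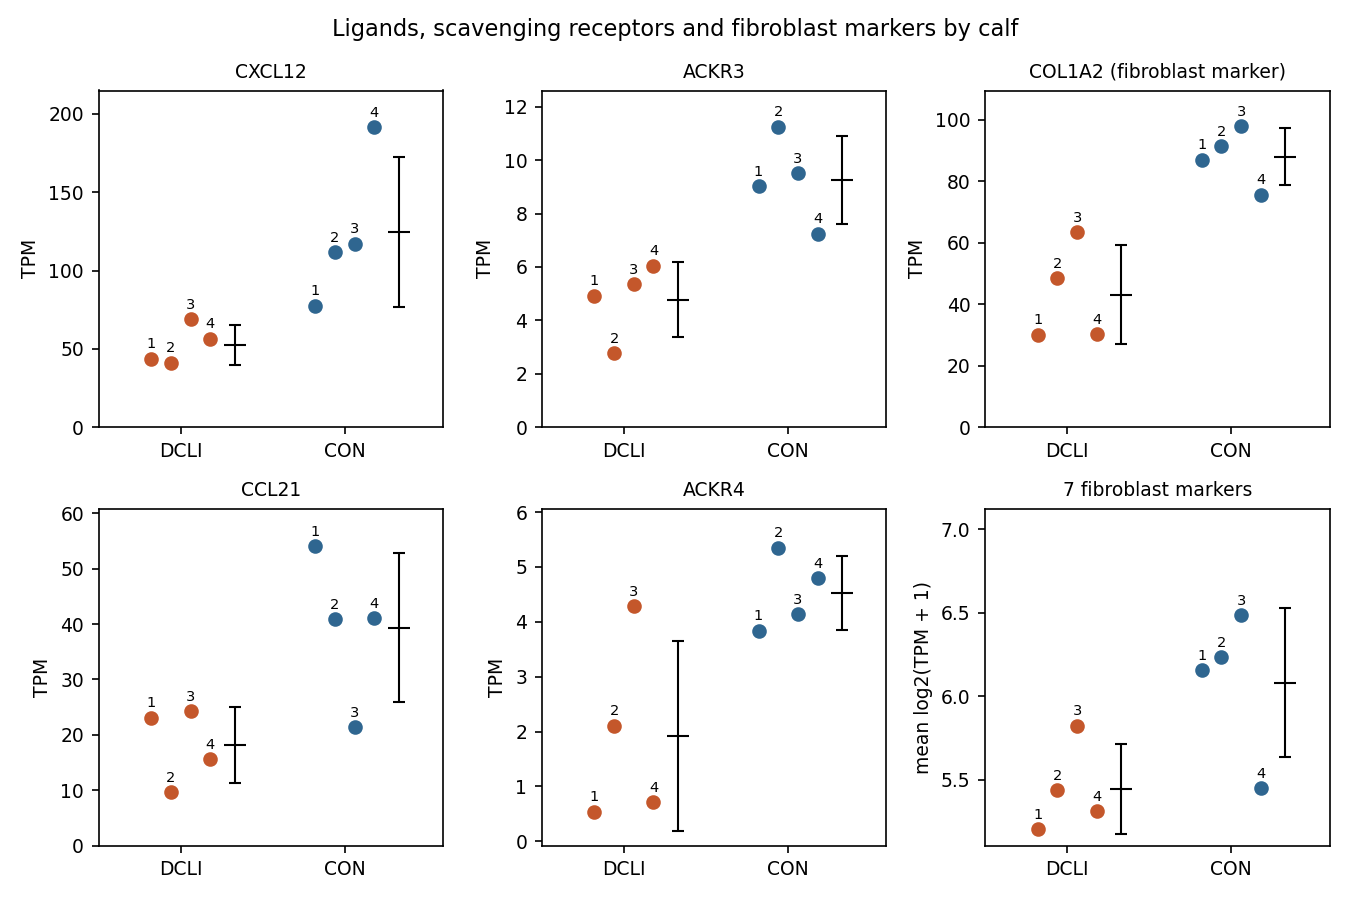
CXCL12 and CCL21, their scavenging receptors ACKR3 and ACKR4, and the fibroblast markers in each calf, in TPM or as the mean of log2(TPM + 1) over 7 markers, with the mean and SD (n = 4 each) beside the points and calf numbers above them. CXCL12, ACKR3 and COL1A2 do not overlap between DCLI and CON, and the marker mean of CON4 falls among the DCLI values.

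CCL25 (gene ID 615986) was the most abundant member. It was at 1918, 1785, 1372 and 1219 TPM in the DCLI group, against 1534, 1277, 509 and 104 TPM in the CON group. CON1 and CON2 lay within the DCLI range, and CON3 and CON4 were below all DCLI calves. The means were 1574 ± 332 TPM in the DCLI group and 856 ± 664 TPM in the CON group (SD, n = 4 each). The log2 fold change was 1.44 (SE 0.75, unadjusted limma p of 0.0876, Benjamini-Hochberg adjusted p of 0.718), and without CON4 it was 0.63 (adjusted p of 0.596 by limma with Benjamini-Hochberg adjustment). Of its 7 transcripts, a pair held 45.8% to 57.3% and 40.00% to 47.82% of the gene in each library, CON4 included. A minor transcript, with 1.68% to 3.20% of the gene, was higher in the DCLI group without overlap. It was at 39.8, 57.2, 30.1 and 26.95 TPM, against 26.93, 25.0, 8.53 and 2.81 TPM in the CON group, so DCLI4 and CON1 were nearly equal. The other transcripts of the gene overlapped. The share of all transcripts without overlap was not computed, so this separation is not a result about CCL25. CCR9, the receptor of CCL25, was at 22.3, 21.3, 13.8 and 17.8 TPM in the DCLI group, against 22.1, 22.1, 16.5 and 5.47 TPM in the CON group, again with CON4 lowest.

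CCL28 (gene ID 535328), the other mucosal epithelial ligand, was at 21.1, 7.33, 16.2 and 14.1 TPM in the DCLI group, against 3.78, 23.1, 6.31 and 0.91 TPM in the CON group. CON2 was the highest of all 8 calves, while the other 3 CON calves were below every DCLI calf. CCL28 had a log2 fold change of 1.22 (SE 0.69, unadjusted limma p of 0.109, Benjamini-Hochberg adjusted p of 0.730), with 0.64 without CON4, 1.86 without CON2 and -0.015 when limma weighted the libraries. Its receptor CCR10 (gene ID 539108) was at 5.71, 1.4, 6.89 and 5.22 TPM in the DCLI group, against 2.95, 8.13, 0.97 and 4.65 TPM in the CON group. The calf with the lowest value of its group was DCLI2 for both CCL28 and CCR10, and the highest CON calf was CON2 for both. The 6 plasma cell markers summed to 1677, 475, 1394 and 1341 TPM in the DCLI group, against 530, 2282, 447 and 1113 TPM in the CON group, and within each group they too were lowest in DCLI2 among the DCLI calves and highest in CON2 among the CON calves. Other calves did not match: the lowest CON calf was CON4 for CCL28 but CON3 for CCR10 and the plasma cell markers.

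Markers of the epithelium were compared beside these ligands. The mean level of 8 enterocyte markers was 9.04, 9.10, 8.44 and 9.26 in the DCLI group, against 6.83, 8.69, 6.55 and 4.40 in the CON group on the log2(TPM + 1) scale. Log2 fold changes were above 0 for 8 of 8, where 43.5% of all genes were. At an unadjusted limma p under 0.05, 4 were higher, where 4.09% of all genes were. Without CON4, 6 of 8 were above 0 and the median was 0.93 in place of 1.64. Again 4 were higher at that p, where 4.22% of all genes were. The 6 pan-epithelial markers had mean levels of 8.19, 8.05, 8.37 and 8.44 in the DCLI group, against 8.59, 8.44, 8.12 and 6.47 in the CON group, so that CON4 alone lay far from the rest. The 5 genes of the proximal small intestine had mean levels of 8.23, 7.65, 6.14 and 7.93 in the DCLI group, against 4.95, 6.11, 3.84 and 2.13 in the CON group. Those of 4 distal genes were 3.56, 5.44, 9.25 and 5.27 in the DCLI group, against 10.3, 9.36, 10.7 and 5.94 in the CON group. CON1 had the highest CCL25 value of the CON group beside a proximal level of 4.95, and CON2 had the highest enterocyte and proximal levels of that group. The part of the epithelium and of the position along the gut in the CCL25 and CCL28 values was not tested.

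**Figure D4:**
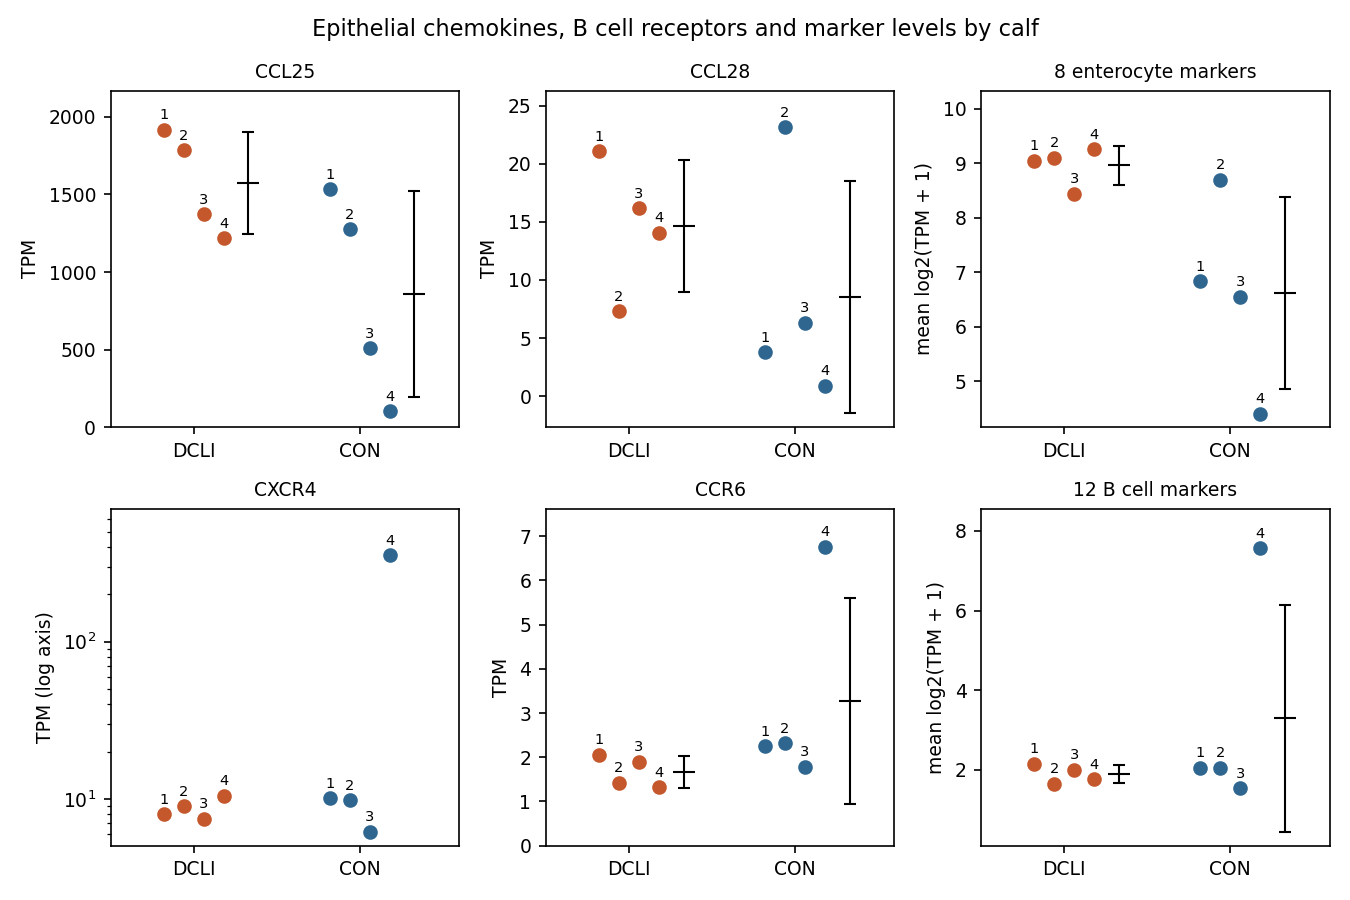
CCL25, CCL28, CXCR4 and CCR6 in TPM in each calf, beside the mean log2(TPM + 1) of 8 enterocyte and 12 B cell markers, with the mean and SD (n = 4 each) except for CXCR4, which is on a log axis. CON4 has the lowest CCL25 and enterocyte values and the highest CXCR4, CCR6 and B cell values.

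The interferon-induced ligands CXCL9, CXCL10 and CXCL11, which draw activated T cells and natural killer cells through CXCR3 on these cells, had log2 fold changes above 0, with none at an unadjusted p under 0.05. CXCL10 (gene ID 615107) was at 203, 172, 176 and 18.7 TPM in the DCLI group, against 31.1, 58.1, 45.3 and 61.3 TPM in the CON group. DCLI1, DCLI2 and DCLI3 were above all CON calves and DCLI4 was below all of them. CXCL11 (gene ID 516104), its neighbour in the gene order, was at 42.7, 60.2, 56.6 and 5.93 TPM in the DCLI group, against 10.9, 15.8, 13.9 and 23.2 TPM in the CON group, with the same split. CXCL9 (gene ID 513990) was at 46.3, 23.7, 82.1 and 4.55 TPM in the DCLI group, against 31.3, 30.5, 12.6 and 24.9 TPM in the CON group, so DCLI2 was within the CON range.

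Log2 fold changes were 1.12 for CXCL10 (SE 0.70), 0.97 for CXCL11 (SE 0.65) and 0.15 for CXCL9 (SE 0.74), with limma Benjamini-Hochberg adjusted p-values of 0.739, 0.744 and 0.957. These values rested on DCLI4, the lowest library for each of these ligands. Without it the log2 fold change was 1.93 for CXCL10 (SE 0.27), 1.71 for CXCL11 (SE 0.29) and 0.91 for CXCL9. Unadjusted limma p-values were 0.000102 for CXCL10 and 0.000338 for CXCL11, with Benjamini-Hochberg adjusted p-values of 0.692 and 0.936. In that fit 4.32% of all genes had an unadjusted p under 0.05. Leaving out the lowest DCLI calf raises the DCLI mean and narrows its spread, so the small p-values follow in part from that choice. The receptor CXCR3 (gene ID 497018) was at 4.64, 3.43, 5.18 and 2.33 TPM in the DCLI group, against 5.29, 2.56, 2.36 and 2.95 TPM in the CON group, and DCLI4 was the lowest here as well.

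DCLI4 also had the lowest mean level of other interferon genes. The mean level of 19 interferon response genes was 5.86, 6.17, 5.39 and 4.56 in the DCLI group, against 5.13, 5.51, 4.98 and 5.19 in the CON group on the log2(TPM + 1) scale. DCLI4 was the lowest of the 8 libraries for 9 of the 19 genes and CON4 for 7. Of the 19, 15 had log2 fold changes above 0, where 43.5% of all genes did. At an unadjusted limma p under 0.05, 2 were higher, where 4.09% of all genes were. These were RSAD2, an antiviral protein, with a log2 fold change of 1.42, and OAS1Y, a sensor enzyme of viral RNA, with 1.06. Both had their lowest value in CON4, and without CON4 the log2 fold changes were 1.12 and 0.76. In that fit 0 of the 19 had an unadjusted limma p under 0.05, where 10.1% of all genes did. Among the members, DCLI4 was the lowest library for 12 of 36 and the highest for 0.

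**Figure D5:**
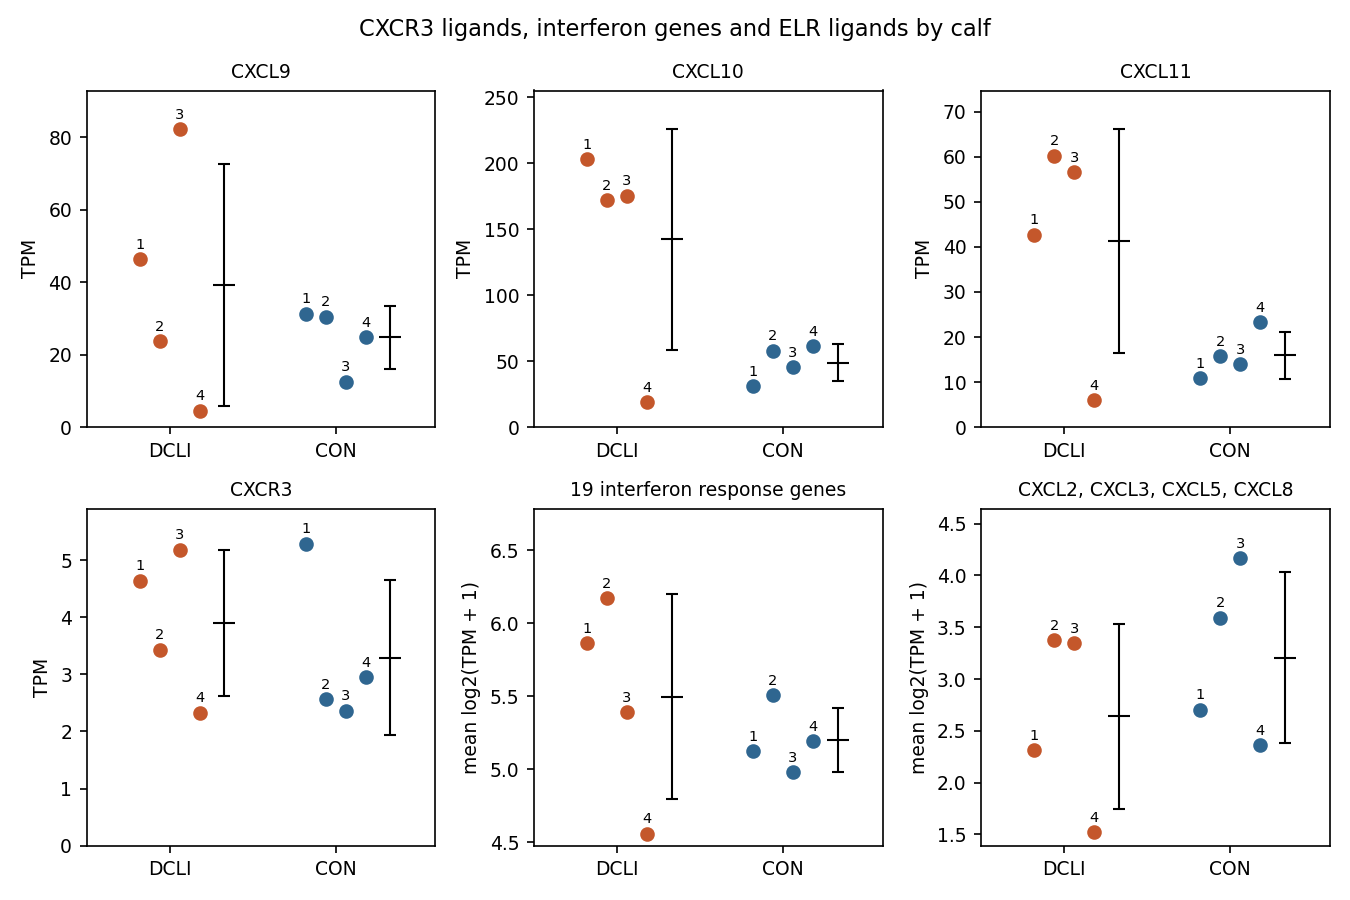
The CXCR3 ligands CXCL9, CXCL10 and CXCL11 and their receptor in TPM in each calf, with the mean log2(TPM + 1) of 19 interferon response genes and of 4 ELR ligands, and the mean and SD (n = 4 each). For CXCL10 and CXCL11, 3 DCLI calves are above all CON calves and DCLI4 is below them.

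The ELR ligands CXCL2, CXCL3, CXCL5 and CXCL8 recruit neutrophils through CXCR1 and CXCR2, and all 4 had log2 fold changes below 0 (median -0.47), with none at an unadjusted p under 0.05. CXCL8 (gene ID 280828), the main neutrophil attractant of cattle and human, was at 4.52, 11.2, 8.23 and 1.5 TPM in the DCLI group, against 7.38, 12.4, 43.8 and 5.89 TPM in the CON group. CXCL3 (gene ID 613667) was at 2.72, 8.63, 8.26 and 3.47 TPM in the DCLI group, against 3.17, 7.12, 38.0 and 4.65 TPM in the CON group. CON3 was the highest calf for both, and it held 50.0% of the CXCL3 TPM of the 8 libraries. Without CON3 the log2 fold change was -0.55 in place of -1.12 for CXCL8 and 0.11 in place of -0.58 for CXCL3.

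CXCL5 was at 4.02 to 22.3 TPM in the DCLI group and 9.36 to 22.3 TPM in the CON group, and CXCL2 was at 0.22 to 4.60 TPM in the DCLI group and 0.73 to 7.38 TPM in the CON group. DCLI4 was the lowest library for CXCL2, CXCL5 and CXCL8. CXCL2 and CXCL3 are near-identical neighbours, so reads shared between them could have been split by the counting. Markers of neutrophils were scarce: CSF3R was not among the genes matched, and the other 5 summed to at most 9.70 TPM in the DCLI group and 12.8 TPM in the CON group. Of 13 tested genes that NF-kB induces, as it does these ligands, 1 was higher at an unadjusted limma p under 0.05 (SOD2), where 4.09% of all genes were. At that p 2 were lower (NFKB2 and ICAM1), where 2.99% of all genes were. Without CON4, 4 were lower, with IL1A and IL1B added, and the share of all genes lower rose as well, to 5.85%. ICAM1, the endothelial adhesion molecule that holds leukocytes, was at 12.9, 7.59, 17.1 and 7.14 TPM in the DCLI group, against 25.9, 17.6, 20.9 and 47.4 TPM in the CON group, without overlap. In that direction 3.11% of all genes were without overlap.

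Of the 7 inflammatory and monocyte CC ligands, 4 had log2 fold changes above 0 and 3 below, with a median of 0.02, and CCL16 turned to -0.0072 with quantile normalization. Without CON4, 1 of the 6 that were tested was above 0 and 5 were below, with a median of -0.23, since CCL4 was then at -0.19 and CCL14 at -0.28 and CCL16 did not pass the filter. CCL5 (gene ID 327712), made by cytotoxic T cells and natural killer cells, was the most abundant of them. It was at 339, 491, 610 and 354 TPM in the DCLI group, against 444, 301, 447 and 100 TPM in the CON group. CON1 and CON3 lay within the DCLI range and CON2 and CON4 were below it, and the log2 fold change of 0.64 (SE 0.47, limma Benjamini-Hochberg adjusted p of 0.753) was 0.16 without CON4. The 10 T cell markers had mean levels of 5.77, 5.58, 5.74 and 5.34 in the DCLI group, against 6.04, 5.34, 5.24 and 4.62 in the CON group, and the 6 markers of cytotoxic cells were also lowest in CON4, at 3.24 against 4.39 or more elsewhere.

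CCL2 and CCL8, which draw monocytes through CCR2, were at 18.97 to 37.6 TPM and 8.07 to 24.7 TPM in the DCLI group, and at 23.9 to 41.2 TPM and 12.6 to 20.8 TPM in the CON group. Their log2 fold changes were -0.33 (95% interval -0.94 to 0.27) and -0.34 (95% interval -1.13 to 0.45). CCL3 and CCL4, which draw monocytes and T cells, are closely related in sequence, so that their shared reads could have been split. Their log2 fold changes were -0.13 for CCL3 and 0.02 for CCL4. CCL4 was at 48.9 TPM in CON1, above every other calf of either group, and without CON1 its log2 fold change was 0.42. CCL14 and CCL16, neighbours of CCL5 in the gene order, had log2 fold changes of 0.03 and 0.05, and CCL16 was the least abundant ligand at 0.81 to 1.29 TPM in the DCLI group and 0.55 to 1.33 TPM in the CON group.

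CCL17 and CCL22, dendritic cell ligands of CCR4, and CX3CL1, a ligand anchored in the membrane of epithelium and endothelium, lie side by side in the gene order. CCL17 was at 3.20, 2.94, 4.70 and 1.46 TPM in the DCLI group, against 18.9, 2.96, 5.44 and 0.53 TPM in the CON group. CCL22 was at 4.12, 3.09, 4.25 and 0.72 TPM in the DCLI group, against 11.7, 3.97, 3.08 and 3.13 TPM in the CON group. CON1 was the highest calf for both, and without it the log2 fold changes were 0.20 for CCL17 and -0.24 for CCL22, in place of -0.43 and -0.62, while without CON4 they were -1.03 and -0.78. CX3CL1 did not share the CON1 value to that extent: it was at 3.05 to 6.88 TPM in the DCLI group and 3.42 to 7.52 TPM in the CON group, with a log2 fold change of 0.01 (95% interval -0.66 to 0.68), or -0.16 without CON4. CX3CR1, its receptor on resident macrophages, was at 1.05 to 3.20 TPM in the DCLI group and 1.23 to 3.68 TPM in the CON group.

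CXCL16 (gene ID 511671), the other membrane-anchored ligand, was at 218, 204, 179 and 144 TPM in the DCLI group, against 180, 154, 126 and 86.1 TPM in the CON group. The ranges overlapped between 144 and 180 TPM. CXCL16 had a log2 fold change of 0.48 (SE 0.26, unadjusted limma p of 0.0985, Benjamini-Hochberg adjusted p of 0.725), with 0.27 without CON4. CXCR6 (gene ID 506807), its receptor on tissue-resident T cells, was the most abundant receptor outside CON4. It was at 38.9, 26.0, 47.2 and 31.9 TPM in the DCLI group, against 55.1, 30.3, 19.4 and 9.90 TPM in the CON group, with a log2 fold change of 0.53 (95% interval -0.50 to 1.57). For CXCR6 the log2 fold change was 0.13 without CON4 and 0.92 without CON1, where its unadjusted limma p was 0.0424. XCR1, the receptor of cross-presenting dendritic cells and the neighbour of CXCR6, was at 1.53 to 7.81 TPM in the DCLI group and 2.57 to 13.3 TPM in the CON group, and CON1 was the highest calf for both receptors.

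Of the other signalling receptors, 3 were set by CON4. CXCR4 (gene ID 281736), which lymphocytes carry at high levels, was at 7.98, 8.98, 7.47 and 10.5 TPM in the DCLI group, against 10.1, 9.83, 6.17 and 356 TPM in the CON group. CON4 held 85.4% of the CXCR4 TPM of the 8 libraries, and the log2 fold change of -1.28 (SE 1.09) was 0.02 without it. CCR1 (gene ID 407771), a receptor of monocytes, was at 1.34, 0.63, 1.24 and 0.72 TPM in the DCLI group, against 1.36, 0.97, 1.00 and 9.77 TPM in the CON group, and 57.4% of its TPM was in CON4. CCR6 (gene ID 519716), the receptor of CCL20 on B cells and helper T cells, was at 2.06, 1.42, 1.90 and 1.32 TPM in the DCLI group, against 2.25, 2.32, 1.79 and 6.76 TPM in the CON group. Their log2 fold changes were -0.69 for CCR1 and -0.56 for CCR6, and -0.10 and -0.23 when CON4 was left out.

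CON4 also held genes of the lymphoid follicle. The 12 B cell markers summed to 50.4 to 78.3 TPM in the DCLI group, against 79.9, 74.4, 42.6 and 3975 TPM in the CON group. CXCL13, the follicular ligand that draws B cells, was at 161 TPM in CON4 and at most 1.17 TPM in the other 7 libraries, and its receptor CXCR5 was at 23.1 TPM in CON4 and at most 0.51 TPM elsewhere. The part of follicle tissue in the CXCR4, CCR1 and CCR6 values was not tested. CCR2, the monocyte receptor of CCL2, did not share the high value: it was at 2.01 to 3.99 TPM in the DCLI group and 1.3 to 3.68 TPM in the CON group, with CON4 at 1.33 TPM.

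Beyond the members, 40 other genes of the chemokine system were found in the table, and 30 of them passed the filter. None was higher and 3 were lower at an unadjusted limma p under 0.05, with a median log2 fold change of -0.38, where 4.09% of all genes were higher and 2.99% lower. Without CON4, 7 were lower, where 5.85% of all genes were, and the median was -0.26. The 3 of the full comparison act downstream of the receptors. ARRB1, the arrestin that uncouples and internalizes chemokine receptors, was at 10.2, 10.4, 11.76 and 12.01 TPM in the DCLI group, against 19.1, 17.1, 19.4 and 30.1 TPM in the CON group, without overlap (log2 fold change -0.86, unadjusted limma p of 0.00296, Benjamini-Hochberg adjusted p of 0.692). GNAI2, the inhibitory G protein subunit through which these receptors signal, was at 71.9, 54.0, 79.7 and 64.5 TPM in the DCLI group, against 137, 82.7, 82.5 and 257 TPM in the CON group, also without overlap. Of all genes, 3.11% were lower without overlap. ELMO1, which links the receptors to cell movement, had a log2 fold change of -1.04. All 3 were highest in CON4, and without it the log2 fold changes were -0.69 for ARRB1, -0.54 for GNAI2 and -0.55 for ELMO1, each again at an unadjusted limma p under 0.05.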

How the data were processed

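RNA-seq libraries of jejunal tissue from 4 DCLI and 4 CON calves were compared, 1 library for each calf. Per the paper's methods, SOAPnuke was used to filter the reads, HISAT2 to align them and RSEM for quantification at the gene level, although the deposited table has a row for each transcript, and the submitters' processing notes name DESeq2 1.4.5. The deposited TPM values, 1 per transcript and library, were made by the authors and sum to 999993 to 999999 per library. The paper lists the clean reads of each library, but the reads behind each gene cannot be read from TPM. The only error given is therefore the spread between calves, and intervals for counting error are absent. The estimated counts that the authors deposited beside them fill 76 transcripts, none of a member, and did not follow the TPM of the same transcript (median r -0.17), so they entered no test and no count model was fitted. Whether reads were counted by strand is not given in the sources used here.

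The TPM of the 50681 transcripts was added up per gene ID, giving 17932 genes, and the 36 members had 68 transcripts. Of the gene IDs, 17696 were found in a RefSeq gene table of ARS-UCD2.0. The table served for names and gene order only, because the authors' build was ARS-UCD1.2. Groups were compared with limma 3.58.1 in R 4.3.3 (lmFit, then eBayes with a trend), using log2(TPM + 1) of genes with at least 1 TPM in at least 4 libraries, and p-values were adjusted over the 13228 genes tested by the Benjamini-Hochberg method. A gene was called at an adjusted p under 0.05 and a log2 fold change of 1 or more in size. The step was tested on simulated data. Python 3.11.15 with numpy 2.4.6, pandas 2.3.3 and matplotlib 3.10.9 made the tables and plots.

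Every member is accounted for. Values in each library are given for members at an unadjusted p under 0.05, those whose groups did not overlap, the 6 most abundant, those with over 50% of the TPM in 1 library, and CCL25 and CCL28, and for others where a sentence turns on them. The members and gene lists were chosen with earlier results of these data known. Of the lists on other cells, those of goblet, enteroendocrine, macrophage, follicle epithelium, erythrocyte and proliferating cells are not used here. The 17 alternatives changed the pseudocount, the filter, the scaling, the variance model, the library weights, the pairing by replicate number or the libraries included. A search for promoter motifs was not run.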

Additional observations from a re-analysis of the deposited data

Results flagged for a closer look

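In 9 of 72 groups of 4 calves (36 members in each diet), a single calf lay far from the other 3 by Dixon's test at the 5% level on TPM. For independent values with a normal spread, about 1 in 20, or 3.6 groups, would be flagged. TPM values are skewed and members vary together, so 9 cannot be read as an excess over 3.6. Of the 9, 4 were in CON4, 2 in CON3, 2 in CON1 and 1 in DCLI4.

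In the DCLI group, DCLI4 had a CXCL10 level of 18.7 TPM, against 172 to 203 TPM in the other 3 DCLI calves. In the CON group, CON4 was high for CXCR4 at 356 TPM (6.17 to 10.1 TPM in the others), for CCR1 at 9.77 TPM (0.97 to 1.36 TPM) and for CCR6 at 6.76 TPM (1.79 to 2.32 TPM), and it was low for CCL14 at 7.44 TPM (18.2 to 19.4 TPM). CON3 was high for the neutrophil ligands CXCL8 at 43.8 TPM (5.89 to 12.4 TPM) and CXCL3 at 38.0 TPM (3.17 to 7.12 TPM). CON1 was high for CCL4 at 48.9 TPM (12.9 to 18.3 TPM) and for CCL22 at 11.7 TPM (3.08 to 3.97 TPM).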

How the results depend on the processing

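No member was called under any of the 17 alternatives, and over all genes 0 were called except with 1 calf left out (0 to 9, with 9 without CON2 and 1 without DCLI1). The members at an unadjusted p under 0.05 numbered 4, where 7.08% of all genes were. With 1 calf left out they numbered 3 to 7, where 3.33% to 10.3% of all genes were. CXCL12, ACKR3 and CCL21 were among them in all 17 alternatives, and ACKR4 in 14 of the 16 that tested it. The members without overlap numbered 2, and 2 to 4 with 1 calf left out, where a smaller group also separates more easily. The same replicate numbers did not pair the calves (r of their deviations -0.20 to 0.05 over 4 pairs, with 1 of 8 libraries closest to its own number). With the replicate block, 0 genes were called and 7 members had an unadjusted p under 0.05. Of these, 6 were lower, where 2.45% of all genes were, and 1 was higher, where 3.94% were. With array weights, 6 members were lower at that p and 0 higher, where 6.87% and 3.49% of all genes were. Of the 36 fold changes, 19 kept their direction throughout. With 1 calf left out, the log2 fold change of CCL25 was 0.63 to 1.92 and that of CCL28 0.64 to 1.86. Those that changed sign ranged from -0.99 to 0.00038 for CCL19, -0.32 to 0.11 for CXCL14, -0.71 to 0.054 for CXCL2, -0.97 to 0.11 for CXCL3, -0.45 to 0.28 for CXCL5, -0.39 to 0.91 for CXCL9, -0.68 to 0.23 for CCL3, -0.19 to 0.42 for CCL4, -0.28 to 0.27 for CCL14, -0.053 to 0.10 for CCL16, -1.03 to 0.20 for CCL17, -0.16 to 0.23 for CX3CL1, -0.34 to 0.043 for CX3CR1, -0.15 to 0.63 for CCR10 and -1.86 to 0.023 for CXCR4. With array weights the log2 fold change was -0.015 for CCL28, 0.14 for CCL19, 0.95 for CCL3, -0.18 for CCL14, -0.12 for CCL16, -0.071 for CX3CL1, -0.013 for CCR2 and -0.20 for CCR10, and with quantile normalization it was -0.0072 for CCL16. The cause was not tested. Median-ratio and quantile scaling moved the median of all genes by 0.04 and 0.01, and filtering at 1 TPM in all 8 libraries left 28 members, 3 of them at an unadjusted p under 0.05. Groups of 4 calves limit the precision throughout, and TPM gives no counting error.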
